A study of Rattus norvegicus with 3 samples.

Results

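The genes described here encode the actin, myosin and tubulin cytoskeleton of the rat jejunum, and their mRNA was measured by microarray at 3 depths of the crypt-villus column. Members were all probes whose platform gene symbol begins with the name of an actin, actinin, actin-related protein, Arp2/3 subunit, capping protein, cofilin, profilin, thymosin beta, tropomyosin, myosin heavy or light chain, villin, ezrin-radixin-moesin or tubulin gene. This rule found 38 of 6653 probes, for 35 of the 4379 named genes. Actg2, Myo1a and Tpm2 have a pair of probes each, and the other 32 genes have 1 probe. Villin, ezrin, Actb and Acta2 were not analysed here.

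The rats were Sprague-Dawley males, 6 weeks old, with no treatment named. Frozen tissue had been cut from the villus top downward, and 10 sections of 10 µm made up each fraction of 100 µm, with 7 fractions in the column. The crypt sample was fraction 6 (500 to 600 µm below the top), the middle villus sample fraction 4 (300 to 400 µm) and the top villus sample fraction 1 (0 to 100 µm). A fraction is a slice of whole tissue, so it holds the cells of the villus core or of the tissue around the crypts as well as epithelium. Each part has 1 sample, the number of animals it came from is not in the labels, and no difference below has a replicate check or a p-value.

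Actin filaments form the core of each microvillus of the absorptive brush border, where class I myosins tie the filaments to the membrane and other myosins move vesicles beneath it. The same protein families contract the smooth muscle that runs in the villus core and around the crypts, in which actin, myosin II and tropomyosin have muscle forms of their own. Branched actin networks are built by the Arp2/3 complex, capped by capping protein, and fed by monomer-binding proteins such as profilin and the beta thymosins. Microtubules are polymers of alpha- and beta-tubulin that grow from gamma-tubulin.

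At the villus top the brush border myosins Myo5b and Myo1a differed in opposite directions from the middle villus, at 1.46 and -1.55 in log2. Tmsb10 had the widest difference between top villus and crypt of the members measured in both. Their promoters are shown for that reason, from 250 bases before to 50 bases after the start site, as RefSeq gives them on the GRCr8 assembly. Each runs 5′ to 3′ on its gene's strand, and capitals mark GGGCGG or its reverse complement CCGCCC.
Myo5b (chr18:70313726-70314025, plus strand): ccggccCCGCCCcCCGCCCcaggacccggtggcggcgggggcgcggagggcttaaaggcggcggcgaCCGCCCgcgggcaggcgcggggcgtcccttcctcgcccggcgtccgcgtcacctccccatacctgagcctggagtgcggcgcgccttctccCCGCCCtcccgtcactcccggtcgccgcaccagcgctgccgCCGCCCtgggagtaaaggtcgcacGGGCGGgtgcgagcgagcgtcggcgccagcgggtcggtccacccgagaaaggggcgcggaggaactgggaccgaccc
Myo1a (chr7:65428008-65428307, plus strand): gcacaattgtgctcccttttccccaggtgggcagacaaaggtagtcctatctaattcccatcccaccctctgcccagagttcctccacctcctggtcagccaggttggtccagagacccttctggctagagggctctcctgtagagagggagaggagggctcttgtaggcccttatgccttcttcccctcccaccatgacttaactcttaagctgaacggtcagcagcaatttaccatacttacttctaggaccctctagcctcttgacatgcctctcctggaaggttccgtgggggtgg
Tmsb10 (chr4:106569091-106569390, minus strand): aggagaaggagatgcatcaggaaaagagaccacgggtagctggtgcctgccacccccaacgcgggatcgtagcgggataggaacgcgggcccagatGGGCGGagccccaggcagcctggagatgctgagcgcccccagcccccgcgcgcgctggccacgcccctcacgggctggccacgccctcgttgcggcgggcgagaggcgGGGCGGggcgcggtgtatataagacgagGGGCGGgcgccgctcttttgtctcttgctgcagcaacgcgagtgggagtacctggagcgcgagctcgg
The Myo5b window holds 6 such matches, the Tmsb10 window 3 and the Myo1a window 0. Whether the number of matches goes with the direction of a difference was not tested.

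Promoters were found for 31 of the 35 genes, all but Actn4, Myh11, Myl9 and Myo1d. Of these 31, 25 hold GGGCGG on either strand (80.6%), against 64.1% of the 3887 promoters of genes on the array and 33.1% of all 33469 promoters of the table. None of the 31 holds TATAAA on either strand, which 7.18% of the array genes' promoters hold. None holds a CArG box, the element that serum response factor binds in muscle genes, against 1.54% of the array genes' promoters. The promoters of 3 smooth muscle members, Actg2, Tpm1 and Tpm2, are among those without it. At so small a share, 31 windows are too few to show a lack of this element. The Actg2 window reaches past the start codon into coding sequence, where its GGGCGG match lies. These are counts of letters in windows of 300 bases, and sequence outside the windows was not searched.

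Values are given on the deposited log2 scale, on which a difference of 1 is 2-fold. A value counted as dim when it lay in the lowest 25% of its column, that is, below 6.05 for crypt, 4.15 for middle villus and 5.15 for top villus. Where 1 of the parts compared was dim, only a bound on the difference is known, given with the words "at least". Of the 38 member probes, 30 were measured above that level in crypt, 34 in the middle villus and 33 at the villus top. Actn2, an actinin of striated muscle, and Arpc4, an Arp2/3 subunit, were dim in every part and gave no difference. The only error scale was the spread between probes of 1 gene, whose pooled SD was 0.91 for the top villus and 0.90 for the middle villus, each against crypt, and 1.05 between both villus parts. For a gene with 1 probe, 2 SDs correspond to 3.55-fold, 3.49-fold and 4.27-fold in that order. Differences of 2 SDs or more were common, at 38.2%, 28.7% and 25.2% of all named genes compared, in the same order. Among members the shares were 28.1%, 12.5% and 15.2%. Since each part has 1 sample, this spread does not measure variation between animals or arrays.

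Most marker genes followed the labels of the fractions. All 4 genes of dividing crypt cells were lower in top villus than in crypt, 3 of them as bounds, against 39.5% of all named genes. Of 7 enterocyte markers 5 were higher, against 23.9% of all named genes, and 2 of the 7 values are bounds. The exceptions were Anpep, at -0.11, and sucrase-isomaltase (Si), which was at least 7.98-fold lower at the top. Under median scaling the median difference of all named genes between top villus and crypt moved to -0.15, against -0.39 as deposited, and between top and middle villus to 0.24, against 0. The members' values should be read against those shifts.

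The cytoskeletal genes were more often higher than lower at the top of the villus. Of 32 members compared between top villus and crypt, 14 were at least 2-fold higher and 4 at least 2-fold lower, which is 43.8% and 12.5%. Over all 3932 named genes compared the shares were 23.9% higher and 39.5% lower. The members' median difference was 0.54, against -0.39 for all named genes. Among the 25 members measured in both parts, 10 were higher and 2 lower, against 629 and 963 of 2735 named genes. Median scaling gave 15 members higher and 2 lower, against 27.5% and 34.9% of all named genes. Since the fractions are slices of tissue, fewer cells of a type and less RNA per cell cannot be told apart in any value given here.

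In the middle villus fewer members stood apart from the crypt. Of 32 compared, 5 were higher and 2 lower, or 15.6% and 6.25%, against 19.1% and 29.5% of all 3825 named genes. Quantile normalization gave 9 higher and 2 lower, or 28.1% and 6.25%, against 24.5% and 24.6% of all named genes. Between top and middle villus 10 of 33 members were higher and 3 lower, or 30.3% and 9.09%, against 29.5% and 27.4% of 3768 named genes. As deposited, the share of members higher was near that of all genes in both of these comparisons, and the share lower was smaller. Under median scaling 15 of 33 members (45.5%) were higher at the top than in the middle villus, against 34.5% of all named genes. These 3 comparisons share samples and are not independent of each other.

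**Figure D1:**
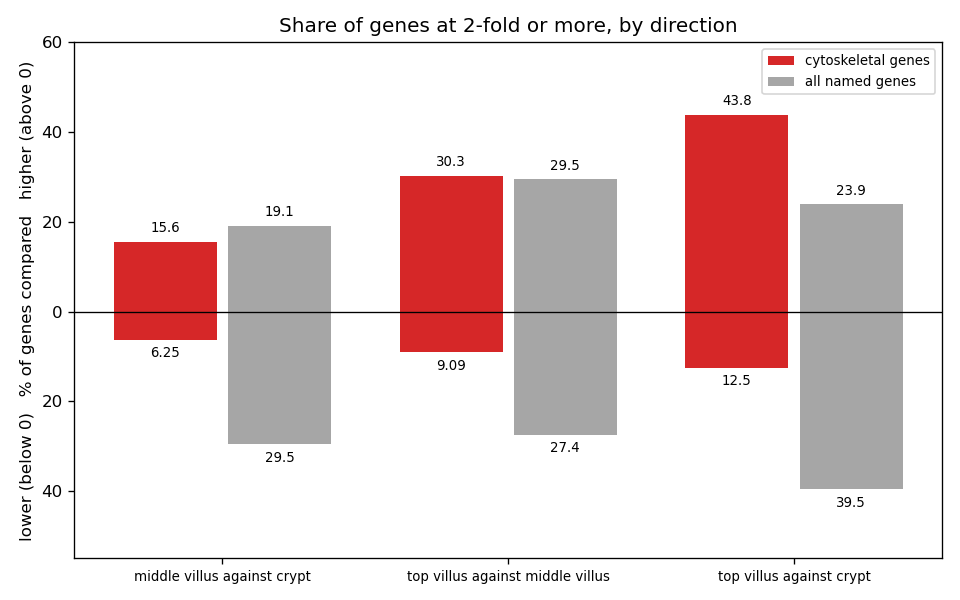
Share of genes at least 2-fold higher (above 0) or lower (below 0), in percent of the genes compared, for the cytoskeletal genes (red) and all named genes (grey) in each comparison of 2 parts. The share lower is smaller among cytoskeletal genes in all 3, and the share higher is larger by more than a few points only for top villus against crypt, at 43.8% against 23.9%.

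The brush border and epithelial list had 5 members on the array, and they did not move together. In the middle villus 4 were within 2-fold of the crypt and Actn4 had a bound just under it, with a median of 0.66 and a range of 0.32 to 0.99, against a median of -0.08 for all named genes. Under quantile normalization Actn4 and Myo5b passed 2-fold there, at 1.96 and 1.35. At the top 2 were higher than in the crypt, none was lower and 3 were within 2-fold. That is 40% higher, from 5 genes, against 23.9% higher and 39.5% lower among all named genes.

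Myo5b, the motor that carries recycling endosomes to the apical membrane, had 6.49 in crypt, 7.15 in the middle villus and 8.61 at the villus top. Its values were ordered along the column, and top villus was 4.35-fold above crypt (log2 difference 2.12), outside 2 SDs of the probe spread. Against middle villus the top was 2.75-fold higher, within 2 SDs. Actn4, an actinin that crosslinks actin filaments, had 3.99 in crypt, 7.04 in the middle villus and 8.56 at the villus top. The crypt value was dim, so top villus was at least 5.71-fold higher than crypt. Top villus was also 2.87-fold above middle villus, within 2 SDs.

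Myo1a, the brush border myosin I that links the microvillus core to the membrane, was lower at the top. Its probes had 10.97 and 8.21 in crypt, 11.04 and 9.39 in the middle villus, and 9.71 and 7.62 at the villus top. For both probes the top villus value was the lowest of the 3 parts. Top villus differed from middle villus by -1.33 and -1.76 for the 2 probes, a mean of -1.55 (2.92-fold lower). Each probe's difference was within the 2 SDs that hold for 1 probe. Against crypt the mean difference was -0.92, inside the 2-fold limit, and that of the brighter probe was -1.26. Middle villus lay above crypt by 0.07 and 1.18, so the probes differ on whether that step reached 2-fold.

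Myo1d, a second class I myosin, had 11.54 in crypt, 12.27 in the middle villus and 11.31 at the villus top. The middle villus was highest, and the difference of top from middle villus was -0.97, just within 2-fold (-1.13 under quantile normalization). Myo6, which moves toward the minus end of actin filaments and acts in endocytosis at the base of microvilli, had 7.65 in crypt, 7.97 in the middle villus and 7.78 at the villus top. Its values spanned less than the 2-fold limit.

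Most other scaffold genes of the brush border and its junctions were higher at the top than in crypt. Of 15 compared between top villus and crypt, 10 were higher and none lower (median 1.38), against 23.9% higher and 39.5% lower among all named genes. Between middle villus and crypt 6 of 14 were higher, 7 within 2-fold and 1 lower (median 0.83). Of all named genes 19.1% were higher there and 29.5% lower. The lower scaffold gene was the actin-bundling plastin Pls3, at least 3.90-fold below crypt. For top villus against crypt, Plec, which links keratin to actin, differed by 4.12. Eps8l2, an actin-capping relative of Eps8, differed by 3.87 and Vcl (vinculin) by 2.21 in that comparison. Nherf1, which anchors transporters to ezrin, was at least 12.7-fold higher at the top than in crypt. Ush1c, or harmonin, and Epb41l3, a band 4.1 protein, were within 2-fold between top villus and crypt, at -0.69 and -0.74. Epb41l3 had 9.07 in crypt, 11.07 in the middle villus and 8.33 at the villus top, so its middle villus value was the highest.

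**Figure D2:**
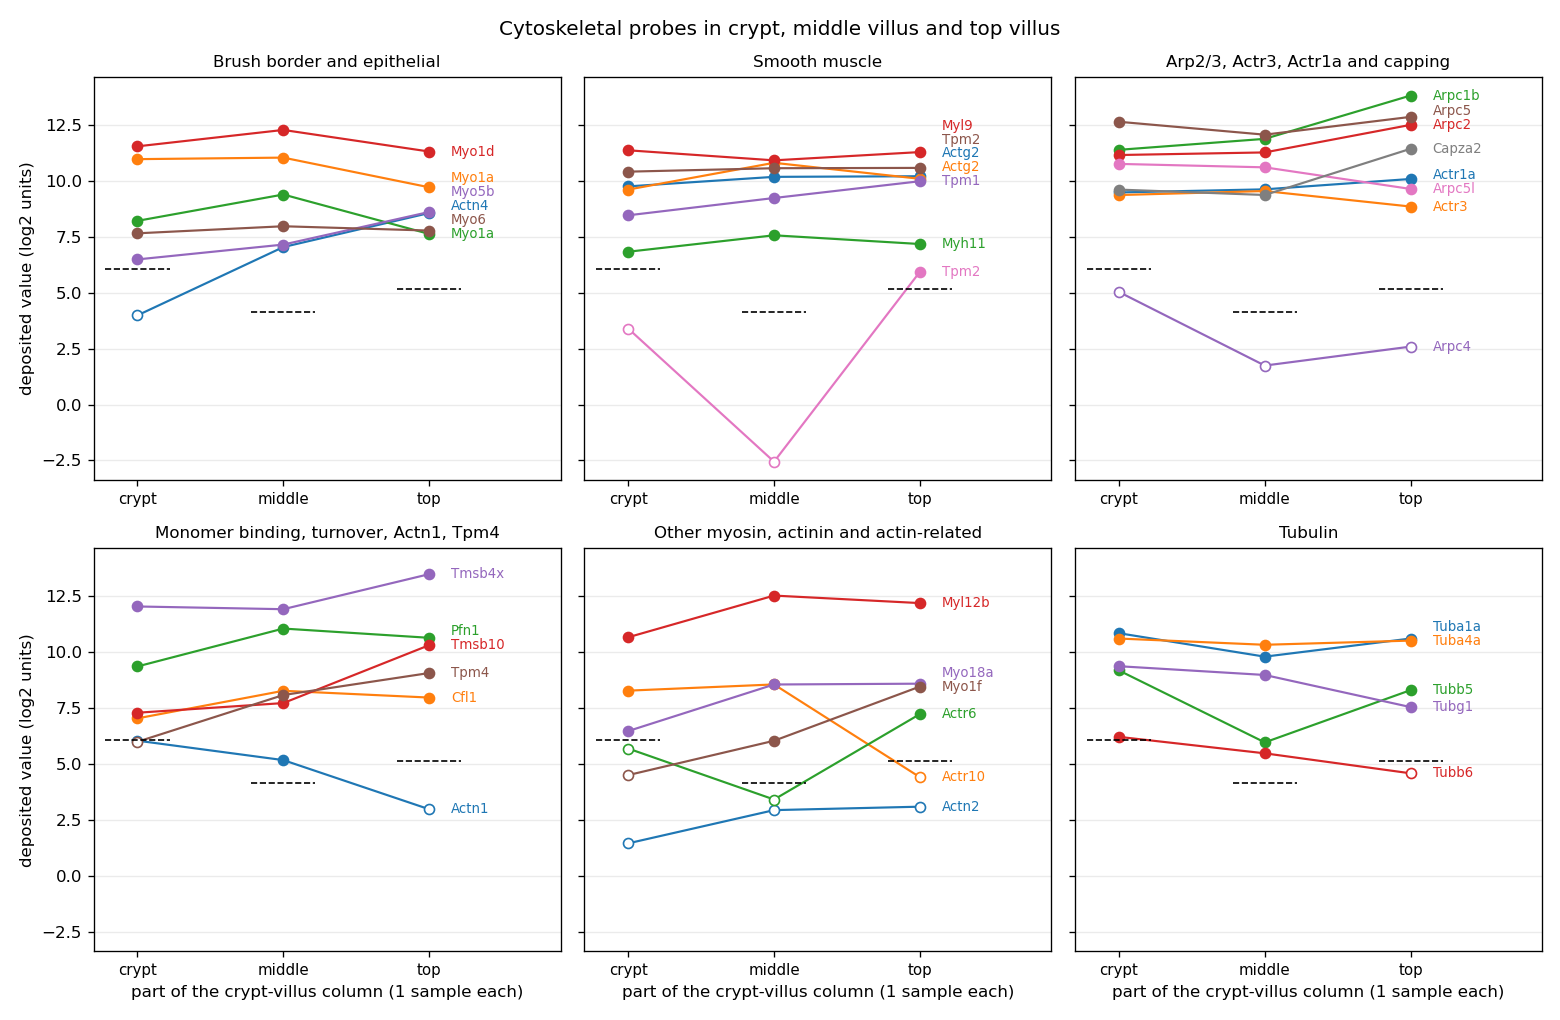
Deposited log2 value of each cytoskeletal probe (vertical axis) in crypt, middle villus and top villus (horizontal axis, 1 sample each), by role. Lines join the values of 1 probe, open circles are dim values, and dashed marks are the level below which a value counted as dim. Most smooth muscle lines run flat, Myo5b and Actn4 climb along the column, Myo1a is lowest at the top, and Tubb5 dips in the middle villus. Heights of different probes cannot be compared.

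As deposited, most smooth muscle members were within 2-fold between parts. Of 5 compared between top villus and crypt, Tpm1 was higher, none was lower and the median was 0.35. Of all named genes 23.9% were higher there and 39.5% lower. None of the 5 passed 2-fold between middle villus and crypt (median 0.74), against 19.1% higher and 29.5% lower among all named genes. None passed it between top and middle villus (median 0.37), against 29.5% and 27.4%. Under median scaling Tpm1 and Tpm2 passed it between top and middle villus, at 1.01 and 1.17. Without the limit on dim values Tpm2, through its dim probe, reached 4.25 there and -2.90 between middle villus and crypt.

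Actg2, the enteric smooth muscle actin, had 9.75 and 9.61 in crypt on its 2 probes, 10.18 and 10.80 in the middle villus, and 10.20 and 10.09 at the villus top. Crypt was the lowest part on both probes, and top villus differed from crypt by 0.45 and 0.48. The probes differ in the middle villus, which lay above crypt by 0.43 on one and 1.20 on the other. Myh11, the smooth muscle myosin heavy chain, had 6.83 in crypt, 7.56 in the middle villus and 7.17 at the villus top, and top villus differed from crypt by 0.35. Its middle villus value lay 0.74 above crypt, and 1.12 above it under quantile normalization.

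Myl9, the regulatory light chain of smooth muscle myosin, had 11.36 in crypt, 10.92 in the middle villus and 11.28 at the villus top. Its top villus value differed from crypt by -0.08. Tpm2, a muscle tropomyosin, had 10.41 in crypt, 10.56 in the middle villus and 10.58 at the villus top on its brighter probe. These 3 values were nearly the same. Its other probe was dim in crypt (3.40) and middle villus (-2.55) and had 5.94 in top villus, which is at least 3.46-fold above middle villus, so the 2 Tpm2 probes do not give the same picture.

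Tpm1, a tropomyosin with muscle and non-muscle forms, had 8.46 in crypt, 9.23 in the middle villus and 9.98 at the villus top. It was ordered along the column, and top villus was 2.87-fold above crypt (1.52), within 2 SDs. Which of its forms the probe reads was not tested.

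Of 6 smooth muscle genes outside the members compared between top villus and crypt, none passed 2-fold, against 23.9% higher and 39.5% lower among all named genes. For 3 of them, Des, Csrp1 and Itga8, crypt was dim and the value is a lower bound, so a rise of 2-fold cannot be denied. Tagln, or transgelin, had 10.91 in crypt, 10.45 in the middle villus and 11.14 at the villus top. Cnn1, a calponin, had 9.41 in crypt, 9.27 in the middle villus and 9.25 at the villus top. Between top and middle villus 4 of 6 were higher, against 29.5% of all named genes. In that comparison Des (desmin) was at least 3.47-fold higher and Csrp1 at least 4.72-fold higher, both dim in the middle villus. Pgm5, a protein of muscle adhesion sites, had 9.03 in crypt, 6.74 in the middle villus and 8.59 at the villus top. The middle villus was its low part, 4.90-fold below crypt (-2.29). Pgm5 was the 1 gene of 4 (25%) that passed 2-fold between middle villus and crypt, near the 29.5% of all named genes lower there.

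Most general actin genes were higher at the top. Of 12 compared with crypt 7 were higher and 1 lower (median 1.31), or 58.3% and 8.33%, against 23.9% and 39.5% of all named genes. Against middle villus 5 of 13 were higher and none lower (median 0.80), and the 38.5% higher stand beside 29.5% of all named genes. Between middle villus and crypt 3 of 13 were higher and none lower (median 0.14), and the 23.1% higher are near the 19.1% of all named genes.

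The beta thymosins, which hold actin monomers in reserve, both lay higher at the top. Tmsb10 had 7.29 in crypt, 7.72 in the middle villus and 10.31 at the villus top. The top villus stood apart from the other parts, 8.11-fold above crypt (3.02) and 6.02-fold above middle villus, both outside 2 SDs. Tmsb4x had 12.04 in crypt, 11.92 in the middle villus and 13.48 at the villus top. Its top villus was 2.72-fold above crypt (1.45), within 2 SDs, and 0.97 above it under quantile normalization.

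Profilin and cofilin, which recycle actin monomers, had similar values in both villus parts, above the crypt. Pfn1 had 9.36 in crypt, 11.05 in the middle villus and 10.64 at the villus top, and middle villus was 3.24-fold above crypt. Cfl1 had 7.04 in crypt, 8.27 in the middle villus and 7.97 at the villus top, and middle villus was 2.35-fold above crypt. Top villus differed from crypt by 1.28 for Pfn1 and by 0.93 for Cfl1. All 4 of these differences were within 2 SDs.

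Subunits of the Arp2/3 complex did not follow 1 course. Arpc1b had 11.39 in crypt, 11.88 in the middle villus and 13.81 at the villus top, 5.38-fold above crypt at the top and outside 2 SDs. Arpc2 had 11.15 in crypt, 11.27 in the middle villus and 12.50 at the villus top, 2.55-fold above crypt. For both the top villus was high and the other parts were near each other. Arpc5l, an alternative form of the Arpc5 subunit, ran the other way, with 10.76 in crypt, 10.60 in the middle villus and 9.64 at the villus top. It was 2.17-fold lower at the top than in crypt (-1.12), and the difference was -0.88 under median scaling. Actr3 (Arp3) and Arpc5 were within 2-fold in all comparisons, at -0.51 and 0.22 for top villus against crypt.

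Capza2, a capping protein subunit that blocks filament growth, had 9.61 in crypt, 9.37 in the middle villus and 11.43 at the villus top. The top was 3.54-fold above crypt and 4.19-fold above middle villus, both just within 2 SDs. Tpm4, a non-muscle tropomyosin, had 5.99 in crypt, 8.08 in the middle villus and 9.06 at the villus top. Crypt was dim by a small margin, and top villus was at least 8.09-fold and middle villus at least 4.09-fold higher than crypt. Actn1, a widely expressed actinin, had 6.04 in crypt, 5.17 in the middle villus and 2.97 at the villus top. It was dim in crypt and top villus, so no difference between them is given.

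Regulators of actin assembly outside the members were mixed. Of 22 compared between top villus and crypt, 8 were higher and 2 lower (median 0.66), or 36.4% and 9.09%, against 23.9% and 39.5% of all named genes. Vasp, which speeds filament growth, differed by 3.10, Cttn (cortactin), which stabilises branches, by 2.89, and Cap1, which recycles monomers, by 2.43. Limk2, a kinase that inactivates cofilin, was lower, at -1.68, as was Cyfip1, of the WAVE complex, at -2.07. Cyfip1 was dim in the middle villus, at least 18.9-fold below crypt.

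The genes Myl12b and Myo18a, which form the list of general myosin genes, were higher than crypt in both villus parts. Of all named genes 23.9% were higher at the top and 19.1% in the middle villus. Myl12b, a regulatory light chain of non-muscle myosin II, had 10.66 in crypt, 12.53 in the middle villus and 12.19 at the villus top. Myo18a, a divergent myosin that binds actin at the Golgi, had 6.47 in crypt, 8.55 in the middle villus and 8.59 at the villus top. For both genes the villus parts lay near each other and above crypt. Top villus was 2.88-fold above crypt for Myl12b and 4.34-fold for Myo18a, and middle villus was 3.64-fold and 4.23-fold above it. The Myl12b difference at the top was within 2 SDs and the other 3 were outside.

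Myo1f, a class I myosin known from leukocytes, had 4.50 in crypt, 6.04 in the middle villus and 8.46 at the villus top. Crypt was dim, top villus was at least 5.32-fold higher than crypt, and it was 5.36-fold above middle villus, outside 2 SDs. With Arpc1b and Tmsb4x, which blood cells also express strongly, it forms the leukocyte-associated list. As deposited, all 3 were higher at the top than in crypt and than in middle villus, against 23.9% and 29.5% of all named genes. None passed 2-fold between middle villus and crypt, where 19.1% of all named genes were higher and 29.5% lower. Myo1f was at 1.26 there under quantile normalization. Of 8 leukocyte markers, 7 were also higher at the top than in crypt, against 23.9% of all named genes, and Cd3g was lower. The mean log2 level of the 8 markers was 6.96 (crypt), 9.28 (middle villus) and 10.14 (top villus). Summed on the linear scale, these markers had log2 levels of 12.33, 13.01 and 14.43 in that order. Ptprc (CD45), Gzmb and Itgb2 were dim in crypt, and no marker was dim in either villus part. The part of leukocytes in the values of these 3 members, and of Lcp1 and Coro1a among the actin regulators, was not tested.

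**Figure D3:**
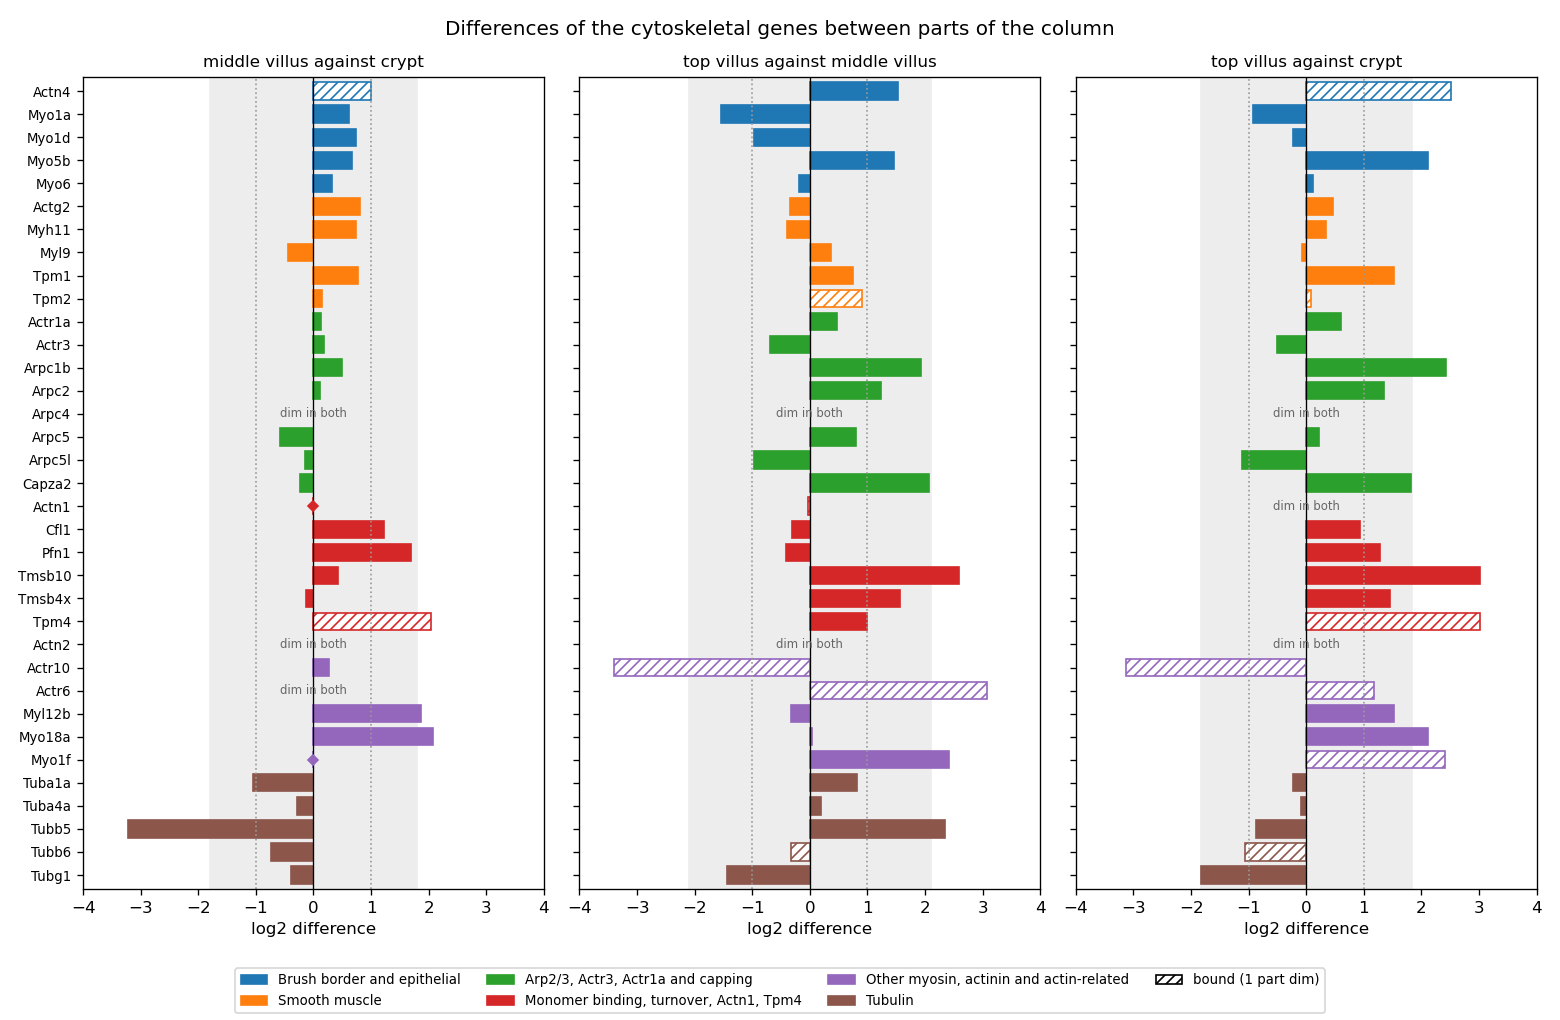
Log2 difference of each cytoskeletal gene (horizontal axis) for middle villus against crypt, top against middle villus, and top villus against crypt, coloured by role. Hatched bars are bounds, diamonds are bounds of 0, dotted lines mark 2-fold, and the grey band is 2 SDs of the spread between probes of a gene to either side of 0. Tmsb10 and the bounded Tpm4 reach 3.02 for top villus against crypt, and Tubb5 reaches -3.22 for middle villus against crypt.

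None of the 5 tubulin genes was 2-fold higher than crypt in either villus part. Of all named genes 23.9% were higher at the top and 19.1% in the middle villus. Of 5 compared 2 were lower at the top (median -0.88), a share near the 39.5% of all named genes. That median was -0.25 under quantile normalization and -0.24 with a common level for dim values. In the middle villus 2 of 5 were also lower (median -0.74), against 29.5% of all named genes. Tubulin genes are similar in sequence, and reading of 1 gene's RNA by another's probe was not tested.

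Tubb5, a widely expressed beta-tubulin, had 9.18 in crypt, 5.96 in the middle villus and 8.30 at the villus top. The middle villus stood apart, 9.29-fold lower than crypt (-3.22), and top villus was 5.05-fold above middle villus. Both were outside 2 SDs, whereas top villus differed from crypt by -0.88. Tuba1a, an alpha-tubulin, was also lowest in the middle villus, with 10.84 in crypt, 9.80 in the middle villus and 10.61 at the villus top. Middle villus was 2.07-fold lower than crypt, within 2 SDs. Tuba4a had 10.61 in crypt, 10.33 in the middle villus and 10.51 at the villus top, a span of less than 2-fold.

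Tubg1, the gamma-tubulin from which microtubules grow at centrosomes, had 9.37 in crypt, 8.98 in the middle villus and 7.54 at the villus top. It was ordered down the column toward the top, which was 3.55-fold lower than crypt (-1.83), at the edge of 2 SDs. Tubb6 had 6.21 in crypt, 5.48 in the middle villus and 4.58 at the villus top. The top was dim, at least 2.09-fold lower than crypt, and this bound fell inside 2-fold under both scalings and with a common level for dim values.

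Microtubule regulators, motors and tubulin-folding chaperones were lower at the top in 12 of 23 genes and higher in 3 (median -1.07), against 39.5% and 23.9% of all named genes. Tcp1, a subunit of the chaperonin that folds actin and tubulin, had 11.91 in crypt, 9.97 in the middle villus and 7.70 at the villus top, and the top differed from crypt by -4.21. Its partner Cct7 differed by -2.76, and Tbca, which holds beta-tubulin during folding, by -3.48. The mitotic kinesins Kif11 and Kif23 were dim at the top, at least 11.1-fold and 5.24-fold lower than crypt. Subunits of the motor dynein and of its partner dynactin differed among themselves, with Dynlt1 at 1.36, Dync1h1 at 0.93, Dctn1 at -1.15, Dync1i2 at -1.27 and Dynll2 at -1.68. Map7, which binds along microtubules in epithelial cells, was at least 4.28-fold higher at the top than in crypt.

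The actin-related proteins outside the Arp2/3 complex differed among themselves. Actr1a, which forms the short filament of dynactin, had 9.48 in crypt, 9.62 in the middle villus and 10.08 at the villus top, within 2-fold throughout. Actr10, at the pointed end of that filament, had 8.28 in crypt, 8.55 in the middle villus and 4.41 at the villus top. The top was dim, at least 8.75-fold lower than crypt and at least 10.6-fold lower than middle villus. Actr6, a nuclear protein of chromatin remodelling, was dim in crypt (5.69) and middle villus (3.41) and had 7.23 in top villus, at least 2.27-fold above crypt and at least 8.48-fold above middle villus. Actr10 and Actr6 share a list but lay on opposite sides of 0.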

How the data were processed

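Per the labels' protocols, RNA of the cryostat fractions was amplified linearly and labelled with dye. The deposited value table has 1 column per part. Its values were read as log2 from their range, since the highest, 15.997, lies just under 16. The sources used here do not give how the authors normalized the deposited log2 values, nor from which dye they came. The 3 scanner files (ScanArray Express 2.00, LOWESS, per the file headers) name no spot and no part and were not used. Groups follow the tissue label of each sample. There is no read depth on arrays, so their number, 1 per part, sets the precision.

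Of 6653 probes, 4820 have 1 gene symbol, 0 have several and 1833 are unnamed here. All 35 member symbols equal those of the RefSeq table (GRCr8). Values were compared as deposited. A dim value was set to the level of the lowest 25% of its column, giving a bound that may not pass 0, and genes dim in both parts were left out. A gene is the mean over its probes, and its call is at 2-fold. No test was run, since each part has 1 sample. The steps were tested on simulated data. Members of the brush border and smooth muscle lists, and all others at 2-fold in any comparison, were given in full. Genes outside the members came from lists. The members and lists were chosen with earlier results of these data known. Alternatives were median scaling, quantile normalization, leaving out the detection filter, keeping probes measured in all 3 parts, a level of log2 6 common to all parts, each gene's brightest probe, and limits of 4-fold and 1.5-fold. The promoter search used the named motifs on both strands. Python 3.11.15 with numpy 2.4.6 and pandas 2.3.3 was used.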

Additional observations from a re-analysis of the deposited data

How the results depend on the processing

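Over 480 recomputed differences of the members described in full, 465 moved by less than 1 SD of the probe spread, 15 moved by more and 0 changed the sign of a difference past 2-fold. Many of these could not move by construction. A gene with 1 probe, measured in both parts, keeps its value without the detection filter and with the brightest probe. Among probes measured in all 3 parts it keeps its value or drops out. Median scaling shifts a comparison by 1 constant, smaller than that SD. Quantile normalization can move every value, and there 76 of 83 moved by less than 1 SD and 7 by more. Of 217 recomputations of differences past 2-fold 6 fell inside 2-fold, those of Tubb6 (3 times), Tmsb4x, Arpc5l and Arpc2. Another 20 went past 2-fold from inside it, 7 of them under quantile normalization, 5 under median scaling and 5 without a detection filter. Those not given above include Cfl1 for top villus against crypt, at 1.43 (quantile) and 1.17 (median scaling), and, for top against middle villus, Tpm4 at 1.22 and 1.25 and Tuba1a at 1.08 (median scaling). The medians of the brush border, smooth muscle, general actin and tubulin lists stayed within 1 SD under the 6 alternatives that leave the limit at 2-fold, although brush border medians involving the top changed sign, between -0.05 and 0.39 against crypt and between -0.58 and 0.10 against middle villus. Tubulin medians lay between -0.88 and -0.24 (top against crypt) and between -0.75 and -0.39 (middle villus against crypt), and the smooth muscle median between 0.01 and 0.63 (top against middle villus). For top villus against crypt, members lower numbered 2, against 4, under median scaling and among probes measured in all 3 parts. At 4-fold 7 of 32 were higher and 1 lower in that comparison, against 12.13% higher and 22.02% lower among all named genes. For middle villus against crypt, members higher numbered 9 under quantile normalization, 8 without a detection filter, 12 at 1.5-fold and 2 at 4-fold, against 5, and members lower numbered 5 without a detection filter and 1 at 4-fold, against 2. For top against middle villus, 6 were lower at 1.5-fold, and 5 were higher and 1 lower at 4-fold, against 10 higher and 3 lower. Median scaling gave 15 higher there. At 4-fold 6.12% of all named genes were higher and 18.7% lower for middle villus against crypt. For top against middle villus these shares were 13.8% and 13.7%. At 1.5-fold 27.7% were higher for middle villus against crypt and 35.6% lower for top against middle villus. Without a detection filter 35.5% were lower for middle villus against crypt. All named genes shifted too, with 24.5% higher under quantile normalization and 21.4% without a detection filter for middle villus against crypt (19.1% as deposited), 34.5% higher under median scaling for top against middle villus (29.5%), and 34.9% lower under median scaling and 34.1% among probes measured in all parts for top villus against crypt (39.5%). The cause was not tested, apart from the limits, which change the count by construction. No paired analysis was possible because each part has 1 sample. Dim values limit 10 of the 38 probes in at least 1 part.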
